A study of Rattus norvegicus with 78 samples.

Results

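Gene expression in the hippocampus (HIP) was compared between 2 cohorts of Flinders rats that were collected 6 months apart. The comparison took all 39 HIP arrays of the 78 arrays of the series, chosen by their labels alone, with 21 in cohort 1 (12 FRL and 9 FSL rats) and 18 in cohort 2 (10 FRL and 8 FSL rats). The other 39 arrays, from the prefrontal/frontal cortex (P/FC), served only to show where HIP differed. FSL is the Flinders Sensitive Line, bred for sensitivity to an anticholinesterase and studied for its depression-like traits, and FRL, the Flinders Resistant Line, is its control. All rats were adult males that had been through the forced swim test, a test of immobility in water, and were sampled after a recovery of 1 week, and RNA came from the whole hippocampus of the right hemisphere. The labels name no drug treatment, and both cohorts held both lines, so that line entered every fit as a covariate.

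Cohort is also the unit of processing in this study. According to the methods, all samples of a cohort shared 1 batch of reagents and 1 lot of arrays, and reagents varied between the cohorts, so that 6 months, a new set of rats and new reagents cannot be told apart. The labelling batch within a cohort is not in the labels. The p-values measure the spread between the rats of each cohort, with 1 array a rat. In these bulk samples fewer cells of a type and less RNA per cell cannot be told apart either.

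The Affymetrix array reads each transcript by 1 or more probesets, and the deposited intensities are on a linear scale. They were floored at 1 and log2-transformed, and 21462 probesets were kept because 50% or more of the arrays in both cohorts exceeded 30. A difference is cohort 2 minus cohort 1 on the log2 scale, and a probeset was called when limma's p was under 0.05 after Benjamini-Hochberg adjustment over all 21462. Markers of the hippocampus were present and brighter than in P/FC. Prox1, the transcription factor of dentate granule cells, had its lowest HIP value at 338 and its highest P/FC value at 147, and Fibcd1, a marker of CA1 neurons, at 154 and 40.3. The median intensity of an FRL array was 60.3 ± 1.88 (SD, n = 12) in cohort 1 and 58.8 ± 1.19 (SD, n = 10) in cohort 2. The first principal component held 23.8% of the variance and ran from -31.4 to 13.0 in cohort 1 and from -6.42 to 37.7 in cohort 2. FRL cohort 2 replicate 2 stood apart from the other arrays on the first and the third component (37.7 and 33.9). Counts without it are given for the activity genes, the glucocorticoid targets and, at the end, the main lists. FSL cohort 2 replicate 2 held the highest value of its group for several activity genes and was treated in the same way.

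Of the 21462 probesets, 8422 (39.2%) were called, 3674 (17.1%) higher and 4748 (22.1%) lower in cohort 2. The changes were small, as the median fold of the called probesets was 1.16, and 368 changed by over 1.5-fold and 34 by over 2-fold. The cohorts did not overlap in 187 probesets (0.871%). For comparison, FSL and FRL differed in 1647 probesets (7.67%) of the same fit. The split of directions depended on the scaling. Of the called probesets 43.6% were higher with the values as deposited, 52.7% after quantile normalisation and 60.3% when each array was centred on its median, while the median difference of all probesets was -0.01, 0.01 and 0.03. Counts of a list after centring are therefore given below where they differ by more than 1 gene from those with the deposited values.

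No difference between the lines passed for any probeset. In FRL 5030 probesets (23.4%) and in FSL 4018 (18.7%) were called, and limma's interaction of line and cohort called 0 probesets (0%), with 934 at an unadjusted p under 0.05 and a smallest adjusted p of 0.139. Among the named genes that were called between the cohorts, the smallest interaction p was that of Pdia4, a disulfide isomerase of the endoplasmic reticulum, which differed by -0.16 in FRL and -0.85 in FSL (unadjusted p = 4.30e-04, adjusted p = 1.00). Without FSL cohort 2 replicate 2, 0 probesets were called as well.

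Immediate early genes are transcribed within minutes of neuronal firing and decay within hours. Their first members are transcription factors such as Fos, Egr1 and the Nr4a nuclear receptors, which are induced by calcium through CREB at cAMP response elements (CRE) and by serum response factor at CArG boxes. Effectors such as the synaptic protein Arc and the phosphatase Dusp1 act at the synapse or switch signalling off. In the hippocampus they are used as marks of recent activity, handling or novelty. The core clock is a feedback loop in which BMAL1 and CLOCK drive the Per, Cry and Nr1d genes, which repress them in turn, with Dbp among the outputs. Corticosteroids act in the hippocampus through the mineralocorticoid receptor Nr3c2 and the glucocorticoid receptor Nr3c1.

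Of these 3 groups the activity genes had the largest share of members called higher. Of 33 genes kept of 42 listed, with 1 probeset for each gene, 16 were higher and 5 lower in cohort 2, beside 15.6% higher and 23.6% lower of all 11252 genes with a symbol (39.3% in either direction). The median difference of the 33 was 0.13, beside -0.02 for all genes, and centring gave 17 higher and 4 lower. The 16 transcription factors held 10 that rose and 1 that fell, and the 17 effectors 6 that rose and 4 that fell. Without FRL cohort 2 replicate 2 the list had 14 higher and 4 lower, and without FSL cohort 2 replicate 2 it had 15 higher and 5 lower.

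The promoters of members that moved together are shown for their CREB and serum response factor motifs. The RefSeq table (GRCr8) holds windows of 250 bases before to 50 after the start of 33 of the 42 listed activity genes. Of these 25 were kept on the arrays and 12 were called higher, and Fos, Arc, Nr4a3 and Trib1, which rose, are not among them. They were searched on both strands for the CRE (TGACGTCA), for its core (TGACG, or CGTCA on the other strand, which lies inside the CRE) and for the CArG box. Each sequence reads 5′ to 3′ on the strand of the gene, and capitals mark the matches to these 3 motifs. Nr4a1 was chosen for its 4 CRE cores, Dusp1 for its full CRE, Egr2 for a CArG box beside a CRE core, and Gadd45g as a member that fell and has no match.
Nr4a1, chr7:134259888-134260187, plus strand: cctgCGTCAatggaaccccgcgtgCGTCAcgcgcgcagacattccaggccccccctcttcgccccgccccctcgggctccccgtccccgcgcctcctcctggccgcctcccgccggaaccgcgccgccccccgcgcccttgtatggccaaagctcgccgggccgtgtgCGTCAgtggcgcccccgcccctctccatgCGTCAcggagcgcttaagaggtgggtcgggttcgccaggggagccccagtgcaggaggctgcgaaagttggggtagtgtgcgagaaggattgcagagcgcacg
Dusp1, chr10:17184603-17184902, plus strand: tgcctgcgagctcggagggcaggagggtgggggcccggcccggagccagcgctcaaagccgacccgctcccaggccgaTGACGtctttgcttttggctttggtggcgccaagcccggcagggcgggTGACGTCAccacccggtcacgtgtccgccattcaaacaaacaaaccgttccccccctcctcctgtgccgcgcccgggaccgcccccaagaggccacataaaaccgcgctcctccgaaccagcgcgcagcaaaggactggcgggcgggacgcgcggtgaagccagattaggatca
Egr2, chr20:21054392-21054691, minus strand: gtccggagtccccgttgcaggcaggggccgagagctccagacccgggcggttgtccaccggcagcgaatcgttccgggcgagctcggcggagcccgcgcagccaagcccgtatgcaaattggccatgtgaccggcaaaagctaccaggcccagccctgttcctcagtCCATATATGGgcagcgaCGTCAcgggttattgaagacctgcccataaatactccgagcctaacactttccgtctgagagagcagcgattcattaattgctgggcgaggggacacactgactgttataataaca
Gadd45g, chr17:13530302-13530601, minus strand: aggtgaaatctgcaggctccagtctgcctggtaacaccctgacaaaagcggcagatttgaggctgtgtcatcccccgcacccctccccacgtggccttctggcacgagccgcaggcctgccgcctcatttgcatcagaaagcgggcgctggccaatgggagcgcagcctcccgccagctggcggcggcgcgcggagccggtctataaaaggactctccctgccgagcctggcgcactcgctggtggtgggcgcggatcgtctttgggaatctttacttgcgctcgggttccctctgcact
The CRE core was in 10 of the 12 promoters of genes that rose (83.3%) and in 20 of the 33 (60.6%), beside 22.0% of 27457 promoters. The CArG box was in 3 of the 12 (25.0%), namely Dusp5, Egr1 and Egr2, beside 1.64% of all promoters, and the full CRE in 1 of the 12 (8.33%) and 7 of the 33 (21.2%), beside 1.91%. Members that fell differed in this. Gadd45g and Ptgs2 hold no match, whereas Jund has 1 full CRE and 3 cores and Plk2 has 1 full CRE and 2 cores. A full CRE holds the core on each strand, so that 2 of the cores of Jund and the 2 of Plk2 lie inside it. These shares describe sequence and say nothing of binding, and the CRE core and CArG searches were added after the cohort difference of these genes was known.

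Fos, the founding immediate early factor, showed the largest rise of the activity genes at their brightest probeset. Its intensity was 18.2 at the lowest, 44.0 at the median and 136 at the highest of the 21 rats of cohort 1, and 48.6, 86.2 and 172 in the 18 rats of cohort 2. All 18 rats of cohort 2 lay above the median of cohort 1, and the cohorts overlapped. The difference was 1.08 (SE 0.19, 2.12-fold, adjusted p = 2.44e-05), with 1.15 in FRL and 1.00 in FSL.

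Egr1, a zinc finger factor of plasticity, was at 528, 712 and 925 (lowest, median and highest) in cohort 1 and at 753, 929 and 1466 in cohort 2. Every rat of cohort 2 exceeded the median of cohort 1, and the difference was 0.43 (SE 0.07, adjusted p = 1.42e-05). Its relative Egr2 rose by 0.61 (SE 0.10, adjusted p = 1.52e-05), from a median of 66.6 to one of 92.6. In both genes the highest value was that of FSL cohort 2 replicate 2, at 1466 for Egr1 and 161 for Egr2, beside FSL medians of 800 and 78.6 in that cohort. Egr4 rose by 0.32 (adjusted p = 0.0209), and Egr3 had a difference of 0.09 (adjusted p = 0.329). In FSL alone neither Egr1 (0.33, adjusted p = 0.0630) nor Egr4 (0.12, adjusted p = 0.572) passed. Egr4 did not pass with the ratio of the Gapdh or the Actb control probesets as a covariate (adjusted p = 0.185 and 0.378). The mean over its probesets did not pass either (0.16, adjusted p = 0.0684).

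All 3 Nr4a receptors, orphan nuclear receptors induced by activity, were higher in cohort 2. Nr4a3 separated the cohorts, from 270 to 394 with a median of 331 in cohort 1 and from 487 to 620 with a median of 524 in cohort 2. Its difference was 0.70 (SE 0.04, adjusted p = 1.02e-15). Nr4a1 was at 154, 240 and 415 in cohort 1 and at 270, 350 and 514 in cohort 2, a rise of 0.61 (SE 0.09, adjusted p = 5.27e-07). Nr4a2 rose by 0.65 (SE 0.08, adjusted p = 1.02e-07) at its brighter probeset and by 1.79 (SE 0.22, adjusted p = 2.32e-08) at its dimmer one. Nr4a3 had a second probeset, nearly as bright, at -0.09 (adjusted p = 0.0445).

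**Figure D1:**
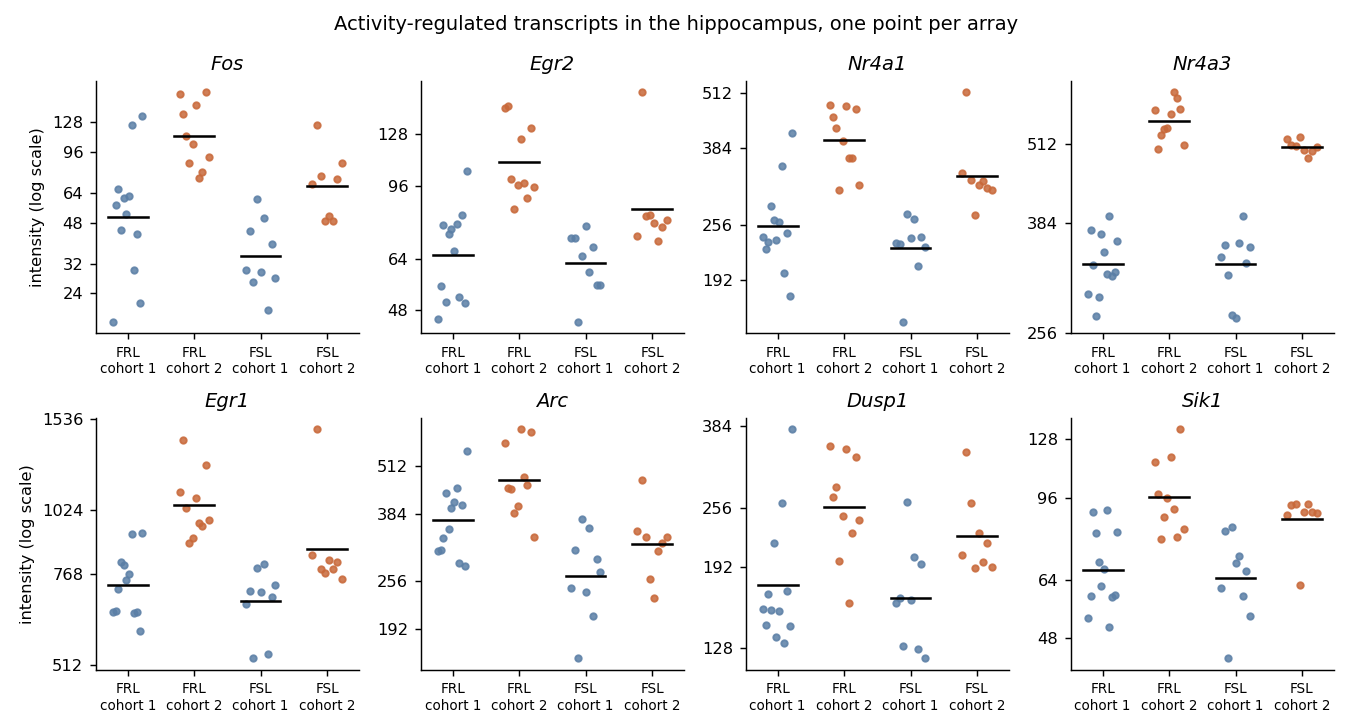
Intensity of 8 activity genes in each of the 39 HIP arrays on a log scale, by line and cohort, with a bar at the mean of the log values of each group. The cohorts are apart for Nr4a3 (highest of cohort 1 394, lowest of cohort 2 487) and overlap for the other 7 genes, and 1 FSL rat of cohort 2 lies far above its group for Egr1, Egr2 and Nr4a1.

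Among the other factors, Crem (0.16), Ier5 (0.16) and Fosl1 (0.18) rose, Jund, the constitutive member of the AP-1 family, fell by 0.20 (adjusted p = 2.10e-05), and Jun (0.03), Junb (-0.10), Klf10 (0.09) and Ier2 (0.08) did not pass. Among the effectors, the phosphatases Dusp1 and Dusp5, which switch off MAP kinases, rose by 0.51 (SE 0.12, adjusted p = 6.87e-04) and 0.38 (SE 0.10, adjusted p = 0.00373), and Dusp6, of the same family, had 0.07 (adjusted p = 0.414). Sik1, a kinase induced by cAMP, rose by 0.48 (SE 0.08, adjusted p = 1.68e-05), and Arc by 0.32 (SE 0.10, adjusted p = 0.0109). Arc was at 161, 309 and 560 in cohort 1 and at 231, 395 and 639 in cohort 2, and 15 of 18 rats of cohort 2 lay above the median of cohort 1. Its rise did not pass in FSL alone (0.27, adjusted p = 0.233) or with the ratio of the Actb control probesets as a covariate (0.31, adjusted p = 0.0920).

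Other effectors moved the other way or did not pass. Gadd45g, a stress-induced regulator of DNA demethylation and growth, fell by 0.39 (SE 0.10, adjusted p = 0.00247), Plk2, a kinase of synaptic scaling, by 0.17 (adjusted p = 8.35e-04), the neuritin Nrn1 by 0.14 (adjusted p = 0.00147) and the prostaglandin synthase Ptgs2 by 0.13 (adjusted p = 0.0472). Bdnf, the neurotrophin, had a difference of 0.13 (SE 0.08, adjusted p = 0.169). Homer1, a scaffold of glutamate receptors with a short activity-induced form, differed between its 5 kept probesets, with -0.02 at the brightest (adjusted p = 0.732) and 1.04 at the dimmest (adjusted p = 2.61e-05).

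Across rats, Fos and Arc varied together within each cohort after the line means were removed, with Pearson's r of 0.74 and Spearman's rho of 0.79 in cohort 1 (n = 21, permutation p = 1.40e-04 and 4.00e-05) and 0.79 and 0.70 in cohort 2 (n = 18, permutation p = 1.20e-04 and 0.00187). Without the 2 rats farthest from the median of Fos r was 0.70 and 0.80. Adjusted over the 10 relations computed, the p of r was 7.00e-04 in both cohorts, and that of rho 4.00e-04 and 0.00935.

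The clock genes were called in both directions. Of 23 kept of 29 listed, 5 were higher and 3 lower and 15 did not pass, with a median of 0.05, beside 15.6% higher and 23.6% lower of all genes. Quantile normalisation gave 6 higher and 3 lower, and centring 10 higher and 3 lower, 2 of the 5 repressors among them. At the brightest probeset and with the deposited values none of the repressors passed. Per1 was at 54.7, 76.4 and 125 in cohort 1 and at 57.1, 80.5 and 147 in cohort 2, a difference of 0.09 (SE 0.09, adjusted p = 0.448). Per2 differed by 0.02 (SE 0.04, adjusted p = 0.691), Per3 by -0.25 (SE 0.14, adjusted p = 0.143), Cry1 by 0.12 (SE 0.07, adjusted p = 0.199) and Cry2 by 0.06 (SE 0.03, adjusted p = 0.0928). The dimmer probeset of Cry2 was called lower (-0.36, adjusted p = 0.00113), as was the mean of its probesets (-0.15, adjusted p = 0.00690).

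Of the outputs Nfil3 was called, and of the nuclear receptors Rora and Rorb. Dbp, the output factor with one of the widest daily swings, was at 245, 296 and 349 in cohort 1 and at 253, 269 and 340 in cohort 2 (difference -0.08, SE 0.04, adjusted p = 0.153). Nr1d1 differed by 0.05 (adjusted p = 0.261), Nr1d2 by 0.00 (SE 0.04, adjusted p = 0.947, with -0.26 and an adjusted p of 0.0332 at a dimmer probeset), Tef by 0.08 (adjusted p = 0.0575), Hlf by -0.04 (adjusted p = 0.672), Bhlhe40 by -0.14 (adjusted p = 0.129) and Bhlhe41 by 0.01 (adjusted p = 0.844). Bmal1, the activator, had a difference of 0.12 (SE 0.06, adjusted p = 0.0857), its partner Clock fell by 0.16 (SE 0.05, adjusted p = 0.00510) and Npas2, which can replace Clock, rose by 0.16 (SE 0.06, adjusted p = 0.0244).

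The called clock members were otherwise kinases, receptors and Nfil3. Gsk3b, a kinase with many roles outside the clock, rose by 0.74 (SE 0.09, adjusted p = 8.26e-09), from a median of 59.2 to one of 98.3, with 16 of 18 rats of cohort 2 above the highest rat of cohort 1. The casein kinases Csnk1e and Csnk1d had called probesets of both signs, with 0.17 at the brightest and -0.21 (adjusted p = 0.0347) at a dimmer one of Csnk1e and with -0.15 at the brightest and 0.21 (adjusted p = 0.00886) at a dimmer one of Csnk1d. Rora, a nuclear receptor that activates Bmal1, fell by 0.51 (SE 0.13, adjusted p = 0.00222) and Rorb rose by 0.20 (adjusted p = 0.0488). Nfil3, a repressor opposed to Dbp, rose by 0.19 (adjusted p = 0.0447). With the ratio of the Actb control probesets as a covariate 4789 of 21462 probesets were called, and only Gsk3b of the clock genes (0.65). Nfil3 (0.25), Rorb (0.22), Rora (-0.46), Csnk1e (0.15) and Csnk1d (-0.14) had differences of about the same size that did not pass. Clock (-0.11, adjusted p = 0.187) and Npas2 (0.10, adjusted p = 0.340) were smaller and did not pass. In FSL alone Clock (-0.10, adjusted p = 0.351) and Npas2 (0.07, adjusted p = 0.550) did not pass either. Rorb and Nfil3 did not pass with plain analysis of variance (adjusted p = 0.0557 and 0.0505). Dbp and its loop partners Per2 and Bmal1 were not related across rats within a cohort (r of 0.14 and 0.43 with Per2 and of -0.37 and -0.19 with Bmal1, smallest permutation p = 0.0773, adjusted 0.133). The D-box, TTATGTAA, was in 1 of 24 clock promoters (4.17%), that of Per2, and the E-box, CACGTG, in 5 (20.8%), beside 0.881% and 6.65% of all promoters.

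The corticosteroid receptors moved in opposite directions. Nr3c2, the mineralocorticoid receptor, was at 395, 458 and 523 in cohort 1 and at 325, 407 and 454 in cohort 2, and all 18 rats of cohort 2 lay below the median of cohort 1 (difference -0.21, SE 0.04, adjusted p = 2.37e-05). Nr3c1, the glucocorticoid receptor, rose by 0.11 (SE 0.03, adjusted p = 0.00205), and 17 of 18 rats of cohort 2 lay above the median of cohort 1. Its rise did not pass in FRL alone (0.06, adjusted p = 0.221) or with the Actb ratio as a covariate (0.08, adjusted p = 0.112). Hsd11b1, which regenerates active glucocorticoid, fell by 0.34 (SE 0.10, adjusted p = 0.00919) and did not pass in FRL alone (-0.21, adjusted p = 0.272). Fkbp4, a co-chaperone of the receptors, fell by 0.11 (adjusted p = 5.59e-05), and Crhbp, which binds the releasing hormone CRH, had a difference of 0.18 (adjusted p = 0.103). Of 9 genes kept of 16 listed for the receptors and the CRH system, 3 were higher and 3 lower, beside 15.6% and 23.6% of all genes. With the transcripts spiked in at hybridisation as a covariate, 0 of the 9 were higher and 2 lower, beside 1984 higher and 2604 lower of all 21462 probesets.

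Of 20 glucocorticoid targets kept of 26 listed, 6 were higher, 1 was lower and 13 did not pass. This stands beside 15.6% higher and 23.6% lower of all genes, and centring gave 8 higher and 1 lower. Without FRL cohort 2 replicate 2 the list had 8 higher and 1 lower, and without FSL cohort 2 replicate 2 it had 6 higher and 1 lower. Ddit4, an inhibitor of mTOR signalling, was at 194, 234 and 371 in cohort 1 and at 237, 293 and 437 in cohort 2, a rise of 0.34 (SE 0.06, adjusted p = 6.61e-05). Klf9 (0.17), Bcl6 (0.24), Fam107a (0.24), Sgk1 (0.22) and Nfkbia (0.25) rose, and the metallothionein Mt2A fell by 0.27. Sgk1 did not pass in FSL alone (0.05, adjusted p = 0.695), nor did the mean over the probesets of Klf9 (0.08, adjusted p = 0.227). Fkbp5, the feedback co-chaperone often read as the marker of receptor activity, had a difference of -0.09 (SE 0.04, adjusted p = 0.0534) and Tsc22d3 of 0.06 (SE 0.05, adjusted p = 0.352). Fkbp5 and Sgk1 were not related across rats (r of 0.39 and 0.22, permutation p = 0.0798 and 0.371, adjusted 0.133 and 0.464).

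Of 21 heat shock proteins and co-chaperones, 6 rose, 2 fell and 13 did not pass, with 8 higher and 2 lower after centring. The inducible Hspa1a was at 74.4, 96.0 and 115 in cohort 1 and at 76.7, 93.2 and 113 in cohort 2 (difference 0.01, SE 0.05, adjusted p = 0.936), and the endoplasmic chaperone Hspa5 (0.05) did not pass. Hsph1 (-0.03) and Dnajb1 (-0.01) did not pass at the brightest probeset and were called lower at the next (-0.23, adjusted p = 2.00e-06, and -0.11, adjusted p = 0.0341). Cacybp, a co-chaperone of Hsp90, rose by 0.32 (adjusted p = 4.73e-06) and Bag3 by 0.17, and the factor Hsf2 fell by 0.20 and Hspe1 by 0.17. Of 24 genes of the unfolded protein response 4 rose and 6 fell, shares close to the 15.6% and 23.6% of all genes, and when arrays were centred on the median 9 rose and 4 fell. Pdia4 (-0.46, SE 0.10, adjusted p = 5.81e-04), Hyou1 (-0.33, adjusted p = 6.71e-05), Manf (-0.33) and Dnajc3 (-0.28) were the folding proteins with the lowest values.

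Cirbp, an RNA-binding protein that rises in the cold and follows the daily rhythm of body temperature, was at 183, 243 and 278 in cohort 1 and at 128, 167 and 223 in cohort 2. All 18 rats of cohort 2 lay below the median of cohort 1 and 15 below its lowest rat. The difference was -0.51 (SE 0.05, adjusted p = 5.35e-10), the same in FRL (-0.51) and close to it in FSL (-0.50). Rbm3, the other cold-inducible member, was at -0.01 (SE 0.04, adjusted p = 0.780).

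**Figure D2:**
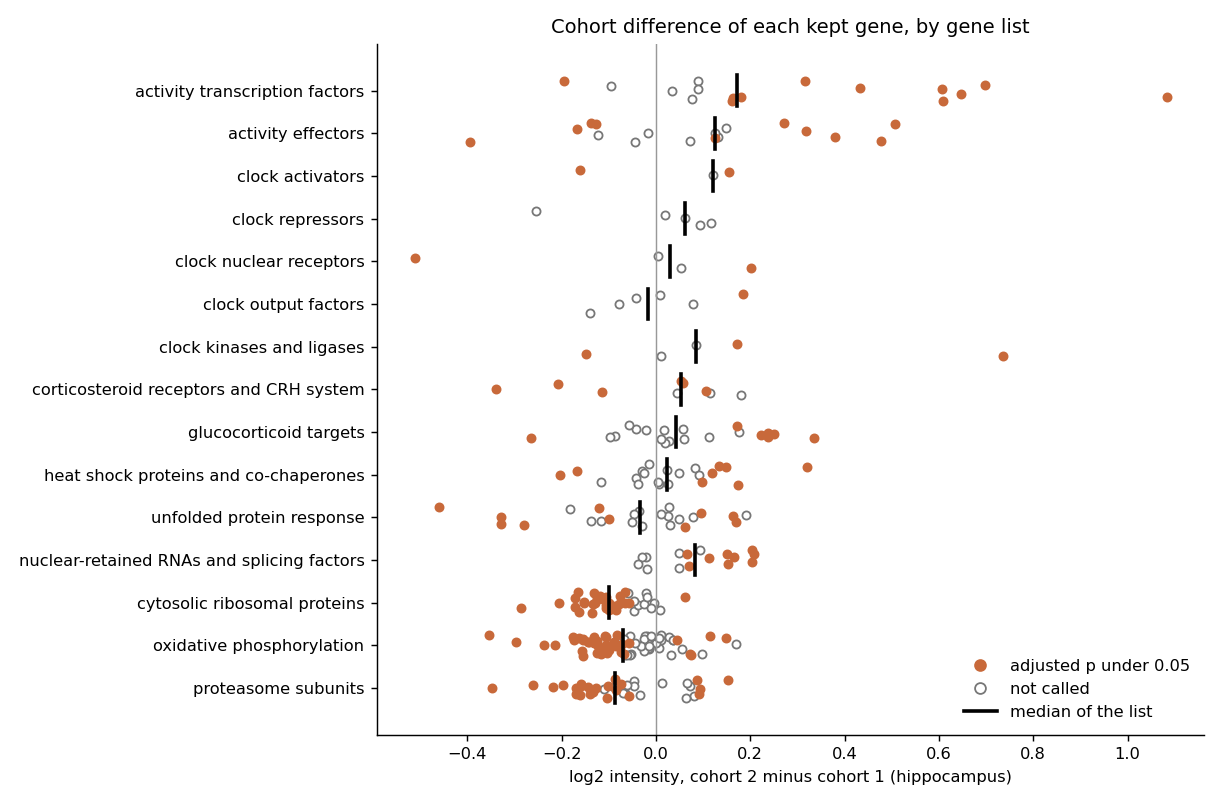
Cohort difference on the log2 scale of each kept gene of 15 gene lists, at its brightest probeset, with filled points for genes called and a bar at the median of the list. Activity genes reach 1.08 (Fos), most clock repressors and outputs lie near 0, and the ribosomal, respiratory and proteasome lists lie below 0 with medians of -0.10, -0.07 and -0.09.

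Genes of the large housekeeping complexes were lower in cohort 2 by small amounts. Of 39 cytosolic ribosomal proteins 28 fell and 1 rose (median -0.10), of 74 subunits of oxidative phosphorylation 37 fell and 5 rose (median -0.07), and of 36 proteasome subunits 19 fell and 4 rose (median -0.09), beside 23.6% lower of all genes. The medians stayed below 0 after quantile normalisation (-0.09, -0.07 and -0.08) and centring (-0.06, -0.03 and -0.04), while centring left 15, 20 and 12 lower and 1, 9 and 8 higher, and quantile normalisation 28, 39 and 18 lower. With 1 line alone the respiratory list had a median of -0.03 and 10 lower in FRL and of -0.12 and 37 lower in FSL, a difference between the lines that was not tested for the list. Rps3, of the small ribosomal subunit, was at 1801, 1937 and 2007 in cohort 1 and at 1643, 1699 and 1836 in cohort 2, and 16 of 18 rats of cohort 2 lay below the lowest of cohort 1 (difference -0.16, SE 0.02, adjusted p = 5.53e-09). Cox7c, of cytochrome c oxidase, differed by -0.17 (SE 0.02, adjusted p = 6.83e-09) and Psmc3, an ATPase of the proteasome, by -0.16 (SE 0.02, adjusted p = 5.94e-08). Rpl6 (0.06), Ndufs1 (0.15) and Psmd11 (0.15) rose.

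Of 16 splicing factors and RNAs kept in the nucleus 9 were higher and 0 lower, beside 15.6% and 23.6% of all genes, and centring gave 10 and 0. The long RNA Meg3 had called probesets of both signs, with 0.20 (SE 0.03, adjusted p = 3.80e-06) at the brighter, -0.15 (adjusted p = 0.00453) at the next and a mean over probesets of 0.03 (adjusted p = 0.522). Srsf6 (0.21), Tra2a (0.20), Rbm39 (0.17), Srsf11 (0.15) and the kinase Clk4 (0.15) rose.

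The control probesets of the arrays differed between the cohorts. The 3′ over 5′ ratio of the Actb probesets (log2), which rises as the 5′ end is lost from the labelled RNA, was 0.60 ± 0.03 (SD, n = 9) in FSL of cohort 1 and 0.73 ± 0.04 (SD, n = 8) in cohort 2. The rats of the cohorts did not overlap, with 0.64 at the highest of cohort 1 and 0.68 at the lowest of cohort 2 (two-sided exact permutation p = 8.23e-05, adjusted over 30 tests 0.00123). In FRL it was 0.72 ± 0.09 (SD, n = 12) and 0.82 ± 0.07 (SD, n = 10), with all 10 rats of cohort 2 above the mean of cohort 1 (permutation p = 0.0156, adjusted 0.0311). The hexokinase ratio rose by 0.28 in FRL (permutation p = 0.00550, adjusted 0.0138) and 0.29 in FSL (exact permutation p = 3.29e-04, adjusted 0.00197). The Gapdh ratio differed by 0.06 in each line and did not pass (adjusted p of the permutation tests 0.117 and 0.123), but its ratio of the 3′ to the middle probeset did (0.09 in FRL and 0.12 in FSL, adjusted over 6 tests 0.00222 and 4.94e-04).

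The spiked transcripts that are added at hybridisation, and which owe nothing to the tissue, were dimmer in cohort 2. BioB had a mean log2 intensity of 8.96 ± 0.23 (SD, n = 12) and 8.48 ± 0.30 (SD, n = 10) in FRL (permutation p = 6.20e-04, adjusted 0.00247) and a difference of -0.50 in FSL (exact permutation p = 0.00288, adjusted 0.00864). BioC differed by -0.46 and -0.54, BioD by -0.36 and -0.38, and Cre by -0.18 and -0.21, and all 8 of these differences passed. The 3′ probeset of Actb fell by 0.34 in FRL and by 0.19 in FSL (adjusted p of the permutation tests 0.00120 and 0.00135), while that of Gapdh differed by 0.00 and -0.02. With the mean of the hybridisation spikes as a covariate 4588 probesets were called, and with the Actb ratio 4789. The part of RNA quality and of hybridisation in the differences of single genes was not tested beyond these covariates.

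**Figure D3:**
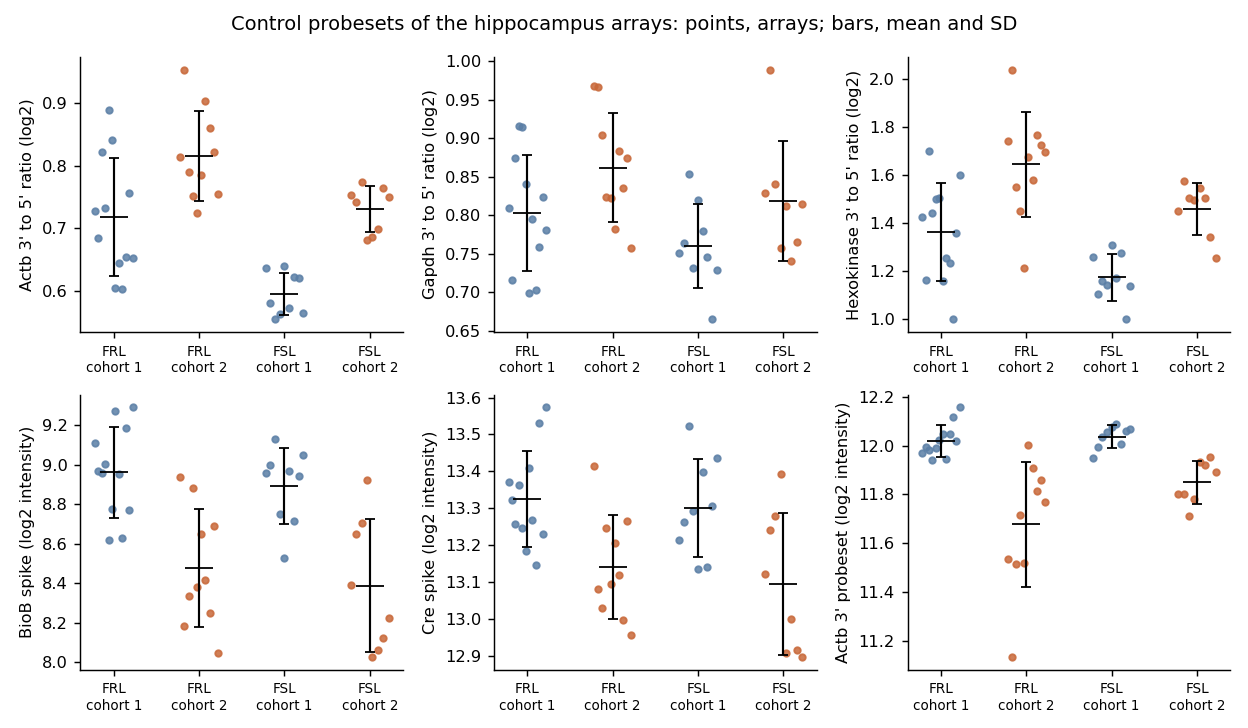
Log2 ratios of 3′ to 5′ control probesets and log2 intensities of control probesets in each HIP array, by line and cohort, with the mean and SD of each group. The Actb and hexokinase ratios are higher and the BioB, Cre and Actb 3′ signals lower in cohort 2 in both lines, and FRL cohort 2 replicate 2 has the lowest Actb 3′ signal.

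Under these covariates calls fell over all 21462 probesets, from 3674 higher and 4748 lower without a covariate. They numbered 1984 higher and 2604 lower (spikes) and 2231 higher and 2558 lower (Actb ratio). The activity genes numbered 10 higher and 2 lower (spikes) and 8 higher and 3 lower (Actb ratio). The clock genes numbered 3 higher (spikes) and 1 higher (Actb ratio), and the ribosomal proteins 19 lower (spikes) and 28 lower (Actb ratio). The markers of blood moved in both directions. Hbb, the beta-globin of red cells, was at 1191, 2008 and 3763 in cohort 1 and at 444, 1044 and 2159 in cohort 2 (difference -1.06, SE 0.18, adjusted p = 1.12e-05), and Alas2, of haem synthesis in red cells, fell by 0.57 (adjusted p = 4.70e-04). Of the 4 markers kept of 9 these 2 fell, Hbe1 rose by 0.31 and Slc4a1 had 0.09, beside 15.6% higher and 23.6% lower of all genes. The summed intensity of the 4 ranged from 1345 to 3982 in cohort 1 and from 594 to 2333 in cohort 2, with none at 0. With the mean of Hbb and Alas2 as a covariate 4696 of 21462 probesets were called, 2081 higher and 2615 lower, and 13 activity genes were higher and 3 lower. This score holds only the 2 markers that fell and was chosen after seeing the data.

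Of the markers of neighbouring tissue those of neocortex were higher in cohort 2. The 8 kept summed to 1674 to 1967 in cohort 1 and to 1923 to 2551 in cohort 2, with none at 0, and 4 rose, Nr4a2, Ccn2 (0.51), Etv1 (0.26, with -0.43 and an adjusted p of 2.19e-06 at a dimmer probeset) and Rorb. Nr4a2 is also an activity gene and Rorb a clock gene, and the part of neocortical tissue in their differences was not tested. The 7 kept markers of choroid plexus summed to 344 to 14979 in cohort 1 and to 349 to 10895 in cohort 2, none at 0, and the smallest adjusted p was that of Kcne2, a potassium channel subunit (0.148). Ttr, the transthyretin of that tissue, ran from 79.4 to 13151 and from 29.4 to 9587 (difference -1.19, SE 0.72, adjusted p = 0.187). The shares of all genes were 15.6% higher and 23.6% lower. Of 13 meningeal markers 2 rose (15.4%, close to the share of all genes), Lum (0.33) and Aldh1a2 (0.19). Lum did not pass with plain analysis of variance (adjusted p = 0.0579) or in FSL alone (0.10, adjusted p = 0.735). Aldh1a2 passed in neither line alone (0.18 in FRL and 0.19 in FSL, adjusted p = 0.272 and 0.0839). Of 9 thalamic markers 1 rose (11.1%) and 2 fell (22.2%), near the shares of all genes, and of 8 striatal ones 1 fell, Ppp1r1b (-0.21). Centring gave 0 lower and 1 higher for thalamus and 2 higher and 0 lower for striatum.

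Counts of the cell markers are to be read beside 15.6% higher and 23.6% lower of all genes, and several were close to these shares. Neurod2, a factor of excitatory neurons, was at 184, 216 and 325 in cohort 1 and at 285, 384 and 457 in cohort 2, and 16 of 18 rats of cohort 2 lay above the highest of cohort 1 (difference 0.77, SE 0.07, adjusted p = 7.38e-12). Neurod1, of immature granule cells, rose by 0.63 (SE 0.04, adjusted p = 5.73e-15), while Prox1 was at 0.00 and 3 of 20 subfield genes were higher and 6 lower, among them Pcp4 (-0.22), Amigo2 (-0.23) and Grik4 (-0.29). Of 14 astrocyte markers 4 rose, with the water channel Aqp4 at 0.28, and Agt fell by 0.30. Of 12 microglial markers Aif1 rose by 0.32 and 4 fell, with Laptm5 at -0.55. Of 13 oligodendrocyte markers 5 fell, with Mal at -0.34 and Aspa at -0.23, and Fa2h rose by 0.27. Of 16 endothelial and mural markers 5 fell, with Vwf at -0.47, and of 15 interneuron markers Slc32a1 (0.25) and Vip (0.28) rose and Reln (-0.36) and Pvalb (-0.12) fell. Centring gave 5 higher and 4 lower for the subfields, 2 and 2 for microglia, 1 and 2 for oligodendrocytes and 3 and 2 for endothelial and mural cells.

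Of the remaining lists, read beside the same shares of all genes, 3 of 10 genes of neurogenesis rose and 1 fell, 1 of 6 precursor markers fell, Pdgfra (-0.28), 1 of 22 interferon and antigen genes rose and 3 fell, 2 of 8 genes of acute inflammation fell, Vim (-0.36) and C3 (-0.27), 3 of 10 genes of the thyroid hormone response rose and 3 fell, 4 of 19 genes of hypoxia and glycolysis rose, with Vegfa at 0.25, and 3 fell, 1 of 8 mitochondrial import genes rose and 2 fell, and 2 of 10 housekeeping genes rose and 3 fell, with Tfrc at -0.22. Centring gave 8 higher and 1 lower for hypoxia and glycolysis and 4 higher and 2 lower for the interferon genes.

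The largest differences belonged to single probesets, and other probesets of the same gene often differed less. Eif4ebp2, a repressor of translation, rose by 1.48 (SE 0.06, adjusted p = 1.25e-21), from 61.8 to 106 in cohort 1 to 197 to 275 in cohort 2, without overlap and equally in FRL (1.48) and FSL (1.47). Map3k1, a MAP kinase kinase kinase, fell by 1.06 (SE 0.06, adjusted p = 3.25e-17), from 83.7 to 127 in cohort 1 to 40.7 to 70.3 in cohort 2, and Pogz, a chromatin protein, by 1.36 (SE 0.09, adjusted p = 5.20e-15). Ntrk2, the receptor of BDNF, rose by 1.25 (SE 0.07, adjusted p = 2.57e-17) at 1 probeset and by 0.12, 0.49 and 0.63 at the other 3. Sparc, a matrix protein, rose by 1.15 at 1 probeset and by 0.10 at the brighter one, and Atp1b2, a subunit of the sodium pump, by 1.56 and 0.42.

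Some probesets of a gene had opposite signs. Kif1a, a motor of synaptic vesicle precursors, fell by 1.12 and 1.21 at 2 probesets and had 0.11 (adjusted p = 0.110) at the third. Scaf11 fell by 1.00 at its brightest probeset and had 0.05, -0.13 and -0.09 at the others, Sppl2a rose by 1.09 at its dimmest and fell by 0.40 at another, and Purb rose by 0.54 at its brightest and fell by 1.02 and 0.40 at 2 others. Glul, the glutamine synthetase of astrocytes, rose by 0.13 at its brightest probeset and fell by 0.20 and 0.47 at the others. Of 854 genes with at least 2 called probesets, 302 (35.4%) had called probesets of opposite sign. Differences given here without a probeset are those of the brightest one.

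**Figure D4:**
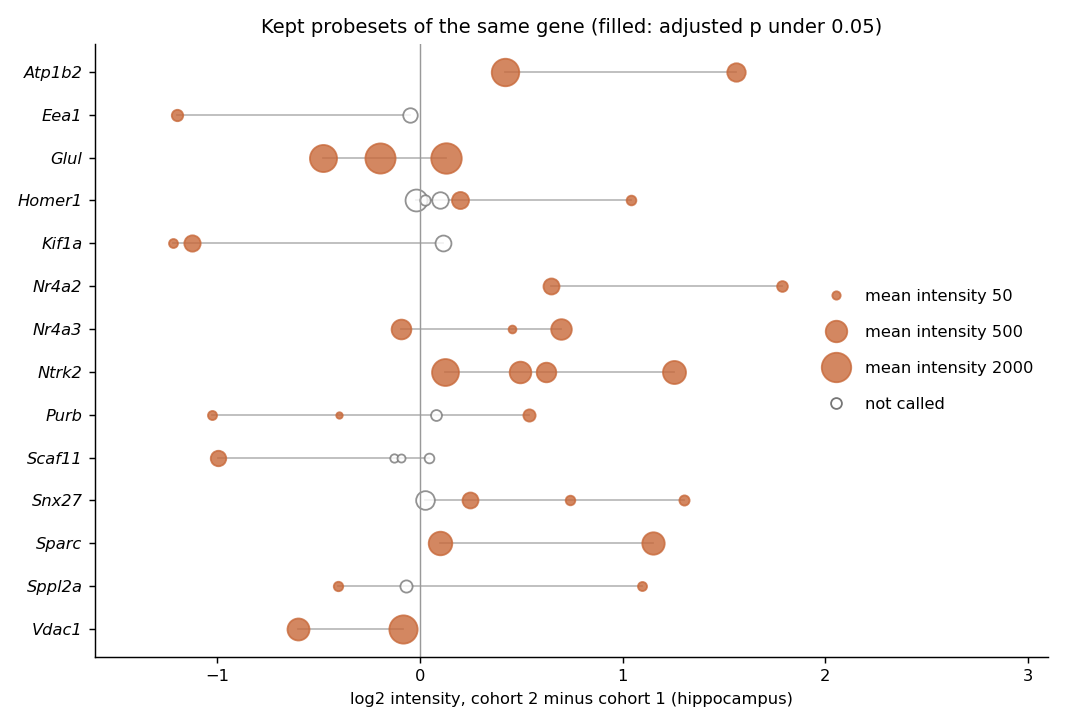
Cohort difference on the log2 scale of every kept probeset of 14 genes, chosen because their probesets differed, with the size of a point rising with its mean intensity and filled points for probesets called. Ntrk2 spans 0.12 to 1.25, Nr4a2 0.65 to 1.79 and Purb -1.02 to 0.54.

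In P/FC the cohorts differed in 6043 of 22233 probesets (27.2%), 3180 higher (14.3%) and 2863 lower (12.9%). The regions were taken from the same rats with the same lots of arrays and reagents in each cohort, although the labels do not pair their arrays, so that the 2 comparisons share their animals. According to the methods, however, the samples of each region were processed apart from those of the other. A departure of HIP from P/FC therefore cannot be told apart from the separate processing of the regions. In a fit over all 78 arrays, which took the arrays as independent, the cohort difference of HIP departed from that of P/FC in 3399 of 20783 probesets (16.4%).

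The activity genes were raised in P/FC too, 23 of 32 kept higher and 2 lower (median 0.39), and where the regions departed the rise was smaller in HIP. Of the 11 activity genes with a called difference between the regions, 0 had the larger value in HIP. Nr4a3 rose by 0.70 in HIP and 1.69 in P/FC (difference -0.99, adjusted p = 2.46e-06), Egr2 by 0.61 and 1.29 (-0.69, adjusted p = 0.00675), and Arc by 0.32 and 0.97 (-0.65, adjusted p = 0.0300). Junb, with -0.10 in HIP, rose by 0.40 in P/FC (-0.50, adjusted p = 0.0248), and Bdnf, with 0.13 in HIP, by 0.50 (-0.37, adjusted p = 0.0417). Fos, at 1.08 and 1.34, did not depart (-0.26, adjusted p = 0.615), nor did Nr4a1, Egr1, Dusp1 and Sik1.

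Clock and stress genes departed singly. In P/FC Per1 rose by 0.52 (adjusted p = 0.0128), Per2 by 0.22, Cry1 by 0.34 and Nfil3 by 0.58, and Dbp fell by 0.24 and Nr1d2 by 0.20. Of these the difference between the regions passed for Nfil3 (-0.40, adjusted p = 0.0106) and Nr1d2 (0.20, adjusted p = 0.00997) and not for Per1 (-0.43, adjusted p = 0.103), Per2, Cry1 and Dbp. Npas2, which rose in HIP, had -0.14 in P/FC (difference 0.29, adjusted p = 0.0197). Nr3c2 was not called in P/FC (adjusted p = 0.972, difference between the regions -0.20, adjusted p = 0.0471), Nr3c1 had -0.04 (0.15, adjusted p = 0.0179) and Hsd11b1 had 0.17 (-0.51, adjusted p = 0.00833). Cirbp fell by 0.53 in P/FC, beside 0.51 in HIP (0.02, adjusted p = 0.880), and Hbb had -0.13 in P/FC (-0.92, adjusted p = 0.00828).

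**Figure D5:**
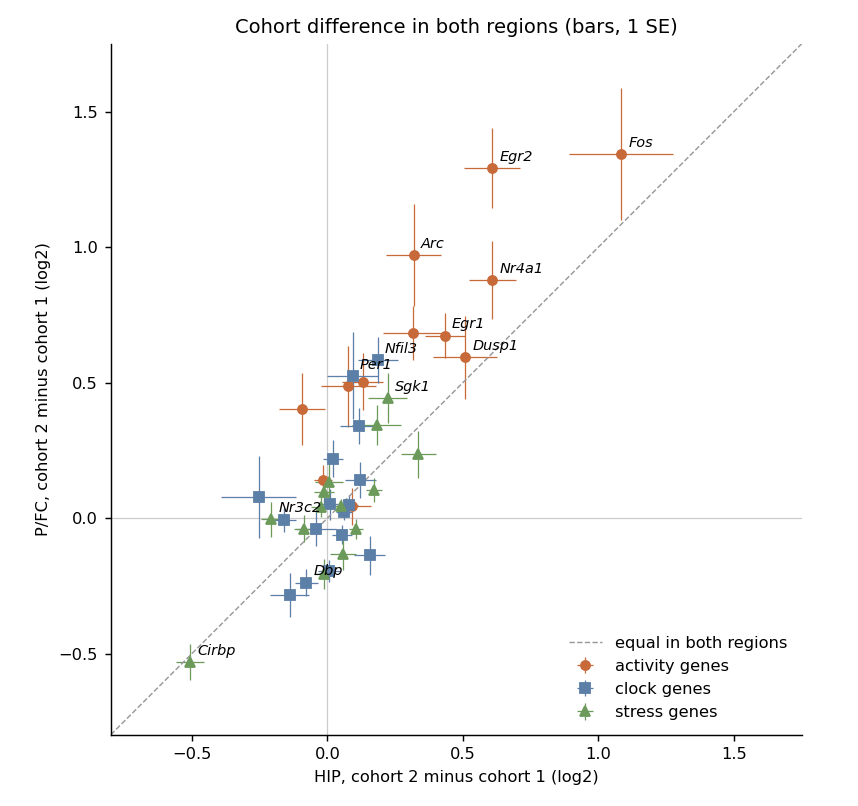
Cohort difference in P/FC against that in HIP on the log2 scale for the core activity, clock and stress genes kept in both regions, with bars of 1 SE and a dashed line where the regions are equal. Egr2 (0.61 in HIP, 1.29 in P/FC) and Arc (0.32 and 0.97) lie above the line, and Cirbp (-0.51 and -0.53) lies on it.

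The 5 named probesets with the smallest p for the difference between the regions were Eef1a1, the elongation factor (0.13 in HIP, -0.31 in P/FC, with -0.03 in HIP at its brightest probeset), Ttyh1, a glial channel (0.38 and -0.11, with 0.34 in HIP at its brightest probeset), C20h6orf89 (-0.22 and 0.39), Serinc1 (0.18 and -0.32) and Dbn1, the drebrin of dendritic spines (0.13 and -0.13). All of these passed in HIP, and all but Ttyh1 in P/FC (adjusted p = 0.105).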

How the data were processed

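RNA of the hippocampus (39 arrays) and the prefrontal/frontal cortex (39 arrays) was measured on Affymetrix whole-genome rat arrays, which hold 31099 probesets, 57 of them controls. The deposited values are intensities on a linear scale, which the authors normalised across arrays in Rosetta Resolver. Of 1212861 HIP values 13310 were under 1 and were set to 1 before log2. Probesets above 30 in 50% of the arrays of each cohort were kept. Groups came from the labels. limma 3.58.1 in R 4.3.3 fitted line and cohort, with Benjamini-Hochberg adjustment over all kept probesets and a threshold of 0.05, and further fits took the interaction of line or of region with cohort. Labelling batch, a term of the authors' model, is not in the labels and was not fitted. A list counted 1 probeset a gene, the brightest. Symbols came from the platform annotation, in which 20832 probesets have 1 gene, 436 several and 9831 none.

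Genes were drawn from the 10 largest rises and falls called with the same sign in both lines. Further sources were core activity, clock and stress genes, up to 4 members of each list with the smallest p, and the controls. The 5 smallest p of each interaction were drawn too. For that of line with cohort the text gives only Pdia4, the smallest among named genes called between the cohorts. Other members of the lists were named after their values were seen. Members and lists were chosen with earlier results of these data known. Controls were compared within a line by two-sided permutation tests in scipy 1.17.1, exact for FSL and with 100000 resamples for FRL. On simulated data with the HIP spread the cohort fit on 21462 probesets recovered 68.7% of 67 changes of 1.2-fold, 95.5% of 67 of 1.5-fold and 100% of 66 of 2-fold, and called 0.0658% of 21262 unchanged probesets. In the simulation only those changed probesets moved and noise was drawn independently for each probeset, whereas 39.2% were called in the data. Its rates therefore need not hold for the real comparison. Arrays give no read depth, and their number limits the precision. Alternatives changed the filter, scaling, floor, covariates, lines, weights, probeset rule and arrays.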

Additional observations from a re-analysis of the deposited data

Results flagged for a closer look

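Of 555 pairs of a named probeset and a group of 8 to 10 rats, 45 held a rat whose gap to the next was large against the range of its group (Dixon's test), in 41 genes. Chance alone marks about 1 in 20 groups. FSL cohort 2 replicate 2 gave 11 of them, the highest values of its group for Egr1 (1466, group median 800), Egr2 (161, median 78.6), Nr4a1 (514), Homer1 (669), Plk2 (828) and Bhlhe41 (536), and the lowest for Fam107a (2813), Hprt1 (867), Neurod1 (327), Agt (244) and Thrsp (107). FRL cohort 2 replicate 3 gave 6, the highest values for Kcne2 (112), Sostdc1 (449), Folr1 (330), Mgp (309), Igfbp2 (1052) and Rora (67.1), of which Kcne2, Sostdc1 and Folr1 are markers of choroid plexus and Mgp and Igfbp2 of meninges. FRL cohort 2 replicate 2 was lowest for Dera (10.3), Nrn1 (1007), Hsf2 (233) and Rbmx (177), replicate 4 of that group for Bhlhe41 (375) and Etv1 (743), and replicate 6 for Agt (327).

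In FSL of cohort 1, replicate 1 was highest for Bhlhe40 (311), Vdac1 (1792), Ndufv3 (588) and Psmb3 (934) and lowest for C20h6orf89 (228). Replicate 2 was lowest for Vegfa (179), Hbe1 (18.1) and Socs3 (22.6), replicate 3 for Nr4a1 (154), Nr3c2 (395), Pde10a (238) and the myelin protein Mal (441, group median 947), and replicate 5 for Pogz (88.6), Pdgfrb (29.9), Psmb8 (34.2) and Psmd4 (396). In FSL of cohort 2, replicate 4 was lowest for Map3k1 (40.7) and Sik1 (62.5), replicate 5 for Tfrc (526) and replicate 8 for Folr1 (60.9), and replicate 8 was highest for Sppl2a (102).

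Not all named probesets that passed limma's interaction test of region and cohort were flagged, as Nr4a3 and Hsd11b1, given above, passed too. The cohort difference of HIP minus that of P/FC was flagged for 23 of them. It was above 0 for Ntrk2 (0.42), LOC102555617 (0.41), Sparc (0.38), Npas2 (0.29), Nr1d2 (0.20), Nr3c1 (0.15), Rbm3 (0.19), Eef1a1 (0.44), Ttyh1 (0.50), Serinc1 (0.49) and Dbn1 (0.27). It was below 0 for Pogz (-0.44), Kif1a (-1.04), Hbb (-0.92), Purb (-0.80), Bpgm (-0.71), Nfil3 (-0.40), Junb (-0.50), Egr2 (-0.69), Arc (-0.65), Bdnf (-0.37), Nr3c2 (-0.20) and C20h6orf89 (-0.61).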

How the results depend on the processing

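Of 135 named probesets called, 64 kept their call and direction in all of the 20 alternatives, 4 of which, the spike level, the blood score and the 2 left-out arrays, were chosen after seeing the data. Over all values 3348 of 3639 stayed on their side of the threshold, 244 lost their call, 38 gained one and 9 changed sign. The count called was 5187 of 10496 probesets with a filter of 100 and 4412 of 11252 genes over gene means. Of 21462 probesets 4239 were called with FRL alone and 4194 with FSL alone. With a covariate the count was 4789 of 21462 for the Actb ratio, 4588 for the spike level and 4696 for the blood score. Called clock genes numbered 5 (filter of 100), 13 (arrays centred), 4 (FRL), 2 (FSL), 1 (Actb ratio), 3 (spike level) and 5 (blood score). Called activity genes numbered 13 (filter of 100), 9 (FSL), 11 (Actb ratio) and 12 (spike level), and corticosteroid genes 7 (FRL) and 8 (spike level). Ribosomal proteins numbered 16 (arrays centred), 11 (FRL) and 15 (blood score), oxidative phosphorylation 13 (FRL), 25 (Actb ratio), 21 (spike level) and 26 (blood score), and proteasome subunits 13 (FRL), 14 (FSL), 13 (Actb ratio) and 12 (spike level). A stricter filter, gene means or 1 line leave fewer probesets, rows or arrays by construction, and for the other alternatives the cause was not tested. Over gene means Cry2 (-0.15), Homer1 (0.27), Csnk1e (-0.039), Slc2a3 (-0.077), Rasgrp2 (-0.20), Slc4a4 (-0.056), Glul (-0.18) and Tomm20 (0.073) changed sign, as did Alas2 (0.10) with the blood score, which holds Alas2 itself. With the ratio of the 3′ to the middle probeset the Gapdh differences passed (0.087 in FRL and 0.12 in FSL) and that of Actb in FRL did not (0.035).

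Without FRL or FSL cohort 2 replicate 2 the called probesets numbered 8084 to 8106, activity genes 18 to 20, clock genes 7 to 8, corticosteroid genes 13 to 14, ribosomal proteins 29 to 31, oxidative phosphorylation 39 to 42, proteasome subunits 22 to 24, region differences 3177 to 3391 and line differences 0. Leaving out each other array in turn was not run. With the replicate number as a block 8873 probesets were called, but 52 same-numbered pairs correlated with a median of 0.02 (-0.37 to 0.42), so that the numbers do not pair the rats. Missing and dim probesets both limit the lists. Of 42 activity genes 38 had a named probeset on the array and 33 were kept. Of 29 clock genes 25 had one and 23 were kept.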
